A study of Mus musculus with 36 samples.

Results

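A set of 10 genes of the oxidative stress defence was followed in mouse brain: the gene of the transcription factor NRF2 (Nfe2l2) and 9 genes of antioxidant or cytoprotective proteins, Nqo1, Hmox1, Gclc, Gclm, Txnrd1, Srxn1, Slc7a11, Sod2 and Cat. They were taken by name from a table of 56980 genes, and all 10 were present and passed the filter on low counts. The data were 36 brain samples, from Ndufs4 knockout mice (KO) and wild-type mice (WT), all aged 37 to 45 days. Ndufs4 is part of complex I of the respiratory chain, which CP2 inhibits; CP2 or its vehicle was given by gavage during 3 days. The design text names hippocampus and cortex, while each sample is labelled brain, so the regional makeup of a sample is not known. Genotype, treatment and the letter F or M in the sample title gave 8 groups. All 4 groups under F held 5 samples each. Under M, the KO and WT groups given CP2 held 5 each and those given vehicle 3 each. The labels do not say what the letter means, how the allele was made, or the dose of CP2.

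NRF2 is normally held in the cytoplasm by KEAP1, which presents it to a ubiquitin ligase for destruction. Oxidants and electrophiles modify KEAP1, NRF2 then accumulates, pairs with a small MAF protein and binds the antioxidant response element in front of its target genes. In brain the pathway is best known from astrocytes, which supply glutathione precursors to neurons. Because NRF2 is controlled mostly at the protein level, the mRNA of Nfe2l2 itself is only a partial readout of its activity, and the target genes are the usual transcriptional readout. Sod2 and Cat are also controlled by other factors.

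The element that NRF2 reads was searched for in the promoters that the RefSeq table holds for these genes (assembly GRCm38.p6, from 250 bases before to 50 bases after a start). Windows were present for 8 of the 10 genes, not for Hmox1 and Gclc. The motifs were TGACNNNGC, TGAGNNNGC and TGANTCAGC, on both strands; a site can match more than 1 of them. Of 32851 windows in the table, 12.4%, 17.6% and 1.19% held the respective motif, and 28.1% held at least 1. Matches were found in 5 of the 10 windows of these genes, and in 5 of the 8 genes. The stretches are shown because they match the kind of motif through which NRF2 is known to act. Whether NRF2 uses these sites was not tested. Capitals mark the match, each written 5′ to 3′ on the strand of the gene.
Srxn1, chr2:152105453-152105513, plus strand: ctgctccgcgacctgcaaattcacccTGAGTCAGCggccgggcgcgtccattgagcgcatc
Gclm, chr3:122245397-122245457, plus strand: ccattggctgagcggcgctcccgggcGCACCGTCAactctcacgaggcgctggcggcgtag
Txnrd1, chr10:82859088-82859148, plus strand: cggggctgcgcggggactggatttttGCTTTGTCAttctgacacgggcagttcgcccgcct
Slc7a11, chr3:50443676-50443736, minus strand: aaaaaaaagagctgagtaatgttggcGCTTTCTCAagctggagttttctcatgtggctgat
Nfe2l2, chr2:75704869-75704913, minus strand: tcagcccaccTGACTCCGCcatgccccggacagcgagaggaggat
The Srxn1 window held the most matches; the one shown begins 45 bases before the start and fits both TGAGNNNGC and TGANTCAGC, which 1.19% of all windows hold. In Gclm, Txnrd1, Slc7a11 and Nfe2l2 the match fits 1 of the commoner motifs, and in the first 3 of them it lies on the opposite strand. Txnrd1 has 3 windows in the table, of which 1 held the match. The windows of Nqo1, Sod2 and Cat held no match to these motifs. Sequence beyond 250 bases before or 50 bases after a start was not searched, so sites farther away would be missed. A match is a description of the sequence, and binding was not measured.

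The counted reads per sample ran from 46124548 to 88559920. Values are CPM, read counts divided by the library size in megareads, with library sizes scaled by the trimmed mean of M-values. The targeted gene, Ndufs4, was lower in KO in every pairing of treatment and letter, with group means from 28.2 to 35.6 CPM in KO and from 44.6 to 53.4 CPM in WT, but was not absent from any KO group. Xist was abundant in F groups and Ddx3y in M groups; sample L291 of KO CP2 M held 47.3 CPM of Xist, while no other M sample exceeded 0.833 CPM. Sample L266 of the same group differed most from its group (mean chi-square per gene 83.2 to 117 over its pairs, at most 82.3 over all other pairs of a group), so each call of a member that rests on KO CP2 M is also given without samples L266 and L291, and list genes that lost their call without them are named. The share of reads that the counting placed outside annotated genes differed between groups: 11.26% to 13.03% in KO vehicle M, 9.48% to 11.6% in WT vehicle M, 9.05% to 13.2% in WT CP2 M and 5.18% to 9.07% in KO CP2 M, against 5.09% to 7.04% in WT vehicle F and 6.19% to 11.7% in KO vehicle F. The share was 5.83% to 10.97% in KO CP2 F and 5.45% to 7.18% in WT CP2 F. Where this share differs between the groups compared, a model that holds it also takes up part of the group difference. A call lost in that model therefore cannot separate the share from genotype or CP2. Markers of neurons, astrocytes, oligodendrocytes and microglia were present in all groups, and choroid plexus markers summed to between 200 and 3492 CPM, a wide spread between samples.

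The 10 genes spanned a wide range of levels, which were compared per kilobase of exon. In WT vehicle F, Srxn1 was highest with 30.8 ± 2.08 CPM per kb (SD, n = 5). It was followed by Cat with 23.4 ± 1.48, Sod2 with 18.8 ± 0.652, Gclc with 15.3 ± 1.14, Gclm with 11.1 ± 0.868 and Txnrd1 with 9.02 ± 0.705 CPM per kb. Slc7a11 had 5.31 ± 1.14, Nfe2l2 5.29 ± 0.542, Nqo1 4.33 ± 0.976 and Hmox1 2.98 ± 0.198 CPM per kb. The sample ranges of Gclm and Txnrd1 overlapped, as did those of each neighbour pair from Slc7a11 down to Hmox1, so those neighbours are not separated. The smallest count behind any of the values below was 145 reads, for Hmox1. Steadiness between samples also differed: over all 36 samples the highest value was 1.23 times the lowest for Sod2 and 1.41 times for Gclc, against 3.07 times for Slc7a11 and 4.13 times for Nqo1.

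**Figure D1:**
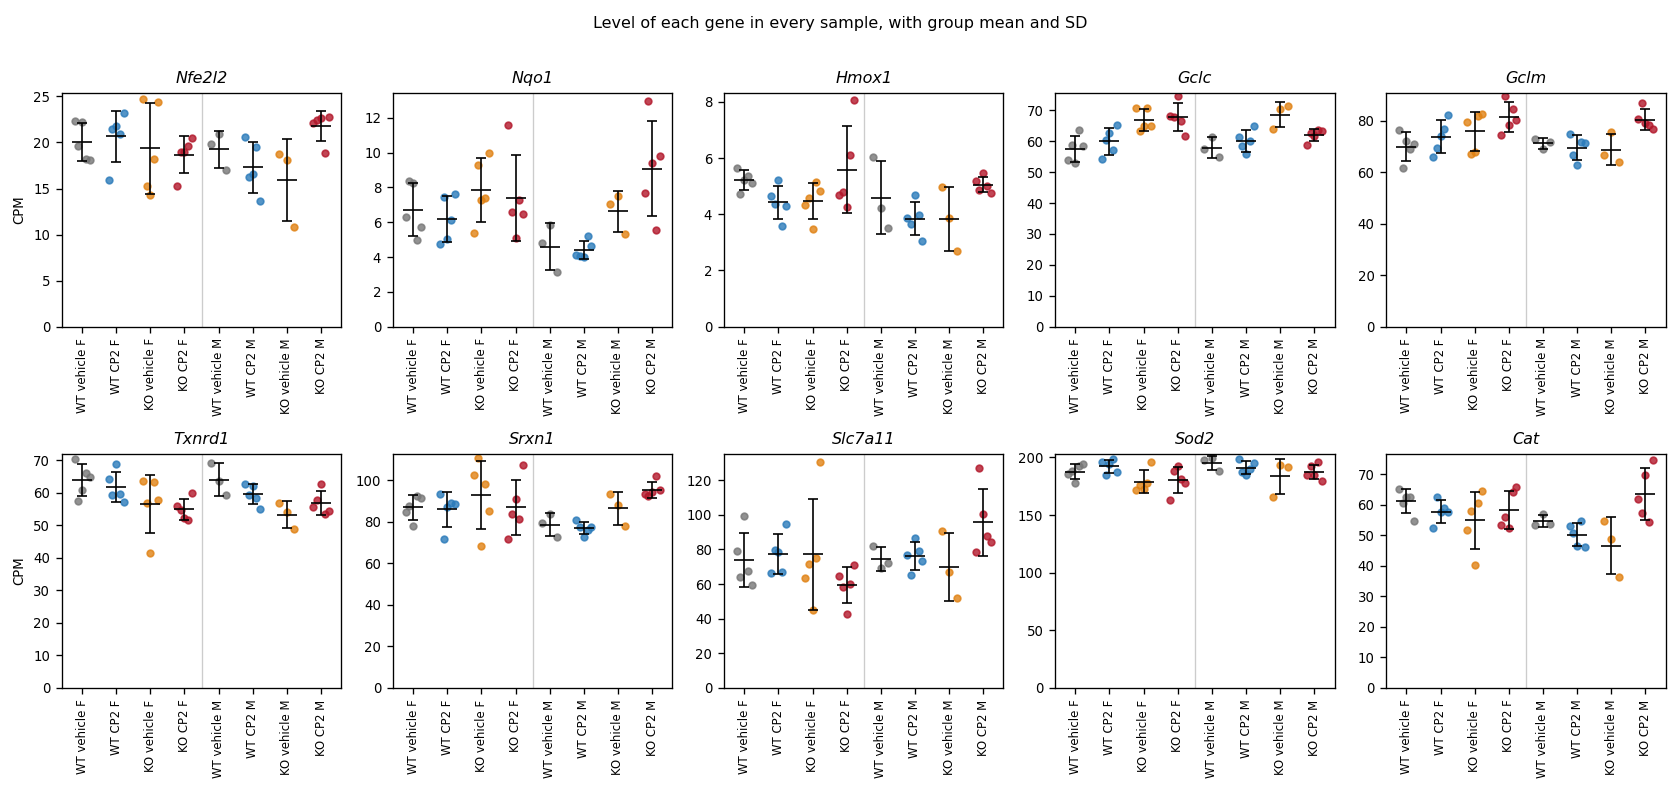
CPM (vertical axis, linear, from 0) of the 10 genes in each of the 36 samples, by group; points are samples, horizontal bars are group means and whiskers are the SD. Sod2 stays between 163 and 200 CPM in all samples, while in M samples Nqo1 runs from 3.14 CPM in a WT sample on vehicle to 12.96 CPM in a KO sample on CP2.

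The first comparison asked what loss of Ndufs4 did on vehicle. In the average of F and M, 2 of the 10 genes passed the test (edgeR quasi-likelihood test, Benjamini-Hochberg adjusted p under 0.05 over 25601 genes), and they moved in opposite directions. This is beside 6.67% of all genes called. Gclc, the catalytic subunit of glutamate-cysteine ligase, which makes the rate-limiting precursor of glutathione, rose by 17.4% in KO. Txnrd1, the cytosolic thioredoxin reductase, fell by 14.2%. The median log2 fold change of the 10 genes was -0.05, beside 0.02 over all genes tested.

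The Gclc samples were 63.3, 64.8, 64.9, 70.8 and 70.8 CPM in KO vehicle F and 52.9, 53.8, 58.4, 58.9 and 63.5 CPM in WT vehicle F. The M samples were 63.9, 70.4 and 71.5 CPM in KO and 54.8, 57.6 and 61.4 CPM in WT. All M samples of KO lay above all M samples of WT, and under F only the lowest KO sample fell within the WT range. Here and below, whether ranges overlap is a description. How many of all genes have ranges that do not overlap was not counted. Averaged, the log2 fold change was 0.23 (SE 0.05, adjusted p = 0.00425), and the call was kept under every alternative run, including leaving out any single sample (adjusted p from 0.00245 to 0.0259). Under F alone it was 0.22 (SE 0.06, adjusted p = 0.034), the 1 member called there beside 4.96% of all genes. The F call was lost without sample L246 or L282 of KO or sample L252, L278 or L296 of WT, with adjusted p up to 0.0843. It was also lost, at 0.23 (adjusted p = 0.137), when adjusted for reads outside genes, at 0.19 (adjusted p = 0.0887) when adjusted for astrocyte markers, at 0.23 (adjusted p = 0.0922) with only the groups compared in the fit and at 0.22 (adjusted p = 0.0897) without the filter on low counts. Under M alone, with 3 samples a side, it was 0.24 (SE 0.08, adjusted p = 0.156). No member passed under M, where 0.516% of all genes did, and DESeq2 called none either. Gclc and Txnrd1 had an unadjusted p under 0.05 there, as had 3132 of 25601 genes. The F and M effects were not shown to differ (F minus M -0.02, SE 0.10, adjusted p = 0.987), and 0.102% of all genes passed that test.

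The Txnrd1 samples were 41.5, 56.7, 57.7, 63.2 and 63.6 CPM in KO vehicle F and 57.4, 60.8, 64.8, 66.0 and 70.5 CPM in WT vehicle F. Under M they were 48.8, 54.1 and 56.8 CPM in KO and 59.2, 63.6 and 69.2 CPM in WT. The F ranges overlapped and the M ranges did not. The averaged log2 fold change was -0.22 (SE 0.07, adjusted p = 0.0346). The call was less stable than that of Gclc. It was lost without any 1 of samples L281, L319 and L322 of KO or L252, L295, L296, L285 and L300 of WT, with adjusted p up to 0.137. Adjusted for the share of reads outside genes, the value was -0.15 (adjusted p = 0.379), and Gclc remained at 0.24 (adjusted p = 0.0321). With only the groups compared in the fit, Txnrd1 had -0.22 (adjusted p = 0.092).

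The other 8 genes did not pass on vehicle. Nqo1, which reduces quinones by 2 electrons at once, had a log2 fold change of 0.37 (SE 0.17, adjusted p = 0.191). Cat, the peroxisomal enzyme that breaks down hydrogen peroxide, had -0.19 (SE 0.08, adjusted p = 0.149). Hmox1, the inducible heme oxygenase, had -0.24 (SE 0.14, adjusted p = 0.327) and Nfe2l2 -0.17 (SE 0.11, adjusted p = 0.424). Gclm, Srxn1, Slc7a11 and Sod2 lay between -0.08 and 0.12. In the wider pathway, Mafg, a small MAF partner of NRF2, fell (-0.24, SE 0.06, adjusted p = 0.0164), the 1 called of 12 NRF2 regulators. All list counts in this comparison stand beside 6.67% of all genes called. Of 32 other NRF2 targets 0 passed by edgeR, with 6 at an unadjusted p under 0.05, beside 5536 of 25601 genes. Of 23 other antioxidant enzymes 3 passed, all lower: Glrx3, a cytosolic glutaredoxin (-0.24, SE 0.06, adjusted p = 0.00612), Txn2, the mitochondrial thioredoxin (-0.20, SE 0.05, adjusted p = 0.0176), and Prdx2, a cytosolic peroxiredoxin (-0.18, SE 0.05, adjusted p = 0.0344). Adjusted for reads outside genes none of these 4 passed, with Mafg at -0.19 (adjusted p = 0.22), Glrx3 at -0.16, Txn2 at -0.09 and Prdx2 at -0.07. Leaving out 1 sample ended the call in 2 of 16 fits for Mafg, 1 for Glrx3, 4 for Txn2 and 8 for Prdx2. In the same comparison 4 of 5 red cell markers, 2 of 10 microglial markers and the astrocyte marker S100b were lower in KO, and Wfs1, on the hippocampal list, was higher. Red cell markers summed to 38.6 to 129 CPM over both KO vehicle groups and 85.1 to 647 CPM over both WT vehicle groups. Adjusted for astrocyte markers, an adjustment added after seeing the data, the averaged vehicle calls of Gclc, Txnrd1, Mafg, Glrx3, Txn2 and Prdx2 were all kept. The part of red cell and microglial markers was not tested, and in whole tissue fewer cells of a type and less RNA per cell cannot be told apart.

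**Figure D2:**
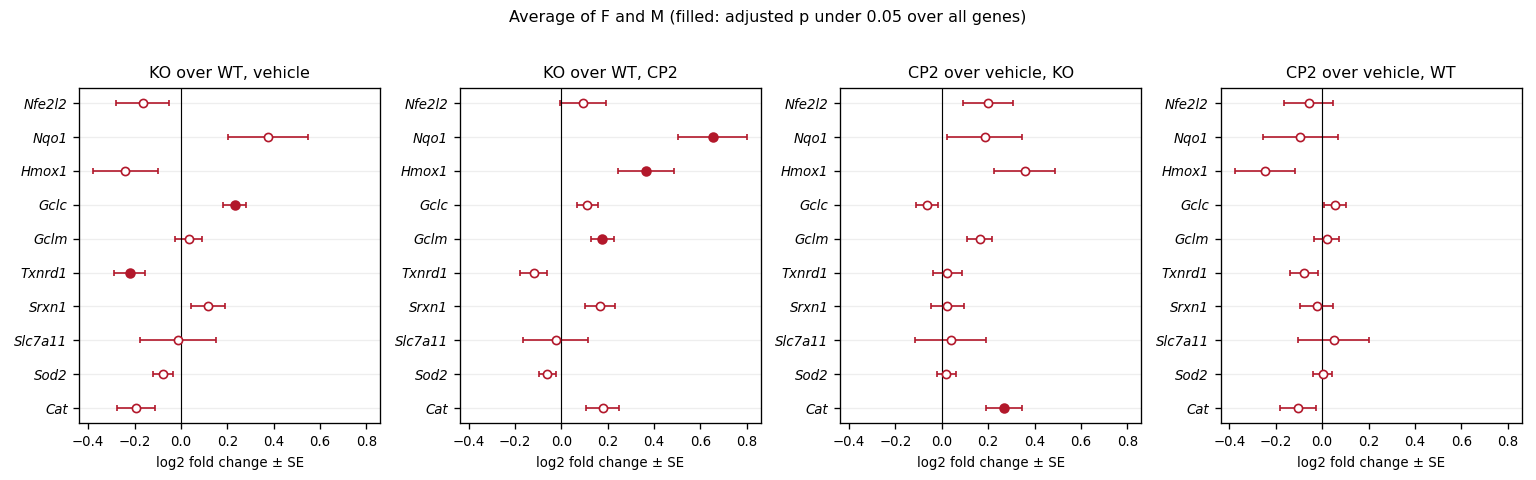
Log2 fold change with its standard error (horizontal axis) of the 10 genes (rows) in the 4 comparisons averaged over F and M; filled points passed the test over all genes. Gclc and Txnrd1 are filled on vehicle, Nqo1, Hmox1 and Gclm under CP2, Cat for CP2 in KO, and none for CP2 in WT.

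Under CP2, other members of the set passed the test between KO and WT. The interaction of genotype and CP2, given further below, passed for no member with edgeR, and for Hmox1 and Cat with DESeq2. By edgeR, a KO effect that differs between vehicle and CP2 was thus not shown for these genes. Averaged over F and M, Nqo1, Hmox1 and Gclm, the regulatory subunit of glutamate-cysteine ligase, rose in KO: 3 of 10 genes, beside 11.6% of all genes called. The averaged rise was 57.2% for Nqo1, 28.8% for Hmox1 and 13.1% for Gclm. The median log2 fold change of the 10 genes was 0.14, beside 0.01 over all genes. Gclc and Txnrd1, called on vehicle, had 0.11 (SE 0.04, adjusted p = 0.0947) and -0.12 (SE 0.06, adjusted p = 0.181) here.

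Nqo1 had the largest log2 fold change of the 10 genes in this comparison. Its samples were 5.57, 7.66, 9.40, 9.80 and 12.96 CPM in KO CP2 M and 3.98, 4.04, 4.11, 4.62 and 5.19 CPM in WT CP2 M. Under F they were 5.07, 6.47, 6.56, 7.30 and 11.6 CPM in KO and 4.76, 5.05, 6.11, 7.43 and 7.62 CPM in WT. Every M sample of KO was above every M sample of WT, while the F ranges overlapped over most of their span. Averaged over the letters, the log2 fold change was 0.65 (SE 0.15, adjusted p = 0.00267), that under M 1.05 (SE 0.21, adjusted p = 0.00101) and that under F 0.26 (SE 0.21, adjusted p = 0.605). The difference between letters did not pass (F minus M -0.79, SE 0.30, adjusted p = 0.19). Without samples L266 and L291 the averaged value was 0.59 (adjusted p = 0.012) and the M value 0.92 (adjusted p = 0.0149). Both calls were kept under all alternatives run, the adjustment for reads outside genes included (averaged value 0.68, adjusted p = 0.00305).

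Choroid plexus markers were set beside Nqo1 sample by sample. Their sum was 1619, 2579, 2802, 200 and 1965 CPM in samples L266, L291, L292, L298 and L299 of KO CP2 M, and 746, 1088, 1064, 1908 and 990 CPM in samples L259, L262, L263, L267 and L289 of WT CP2 M. Sample L298, with the lowest sum, also had the lowest Nqo1 of its group. Sample L292, with the highest sum, had 9.40 CPM of Nqo1, below the 12.96 CPM of sample L291. Of the 8 markers 0 passed the edgeR test between KO and WT under CP2. In a model that held the log2 sum of these markers, the averaged Nqo1 value was 0.65 (adjusted p = 0.000472) and the M value 0.94 (adjusted p = 0.000574). The adjustment was added after seeing the data.

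The Hmox1 samples under F were 4.26, 4.70, 4.78, 6.10 and 8.06 CPM in KO CP2 and 3.59, 4.30, 4.38, 4.66 and 5.22 CPM in WT CP2. Under M they were 4.77, 4.86, 5.02, 5.18 and 5.46 CPM in KO and 3.06, 3.65, 3.85, 3.96 and 4.69 CPM in WT. The M ranges did not overlap and the F ranges did. For Hmox1 the averaged log2 fold change was 0.37 (SE 0.12, adjusted p = 0.0412), close to the threshold. The call was lost without any 1 of samples L233, L234, L266, L291, L292 and L298 of KO or L240, L272, L311, L259, L262 and L289 of WT (adjusted p up to 0.12), and without samples L266 and L291 together (0.37, adjusted p = 0.0729). Adjusted for reads outside genes it was 0.28 (adjusted p = 0.136), and adjusted for the log2 sum of astrocyte markers 0.18 (adjusted p = 0.309). Without the filter on low counts it was 0.37 (adjusted p = 0.0668).

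The Gclm samples were 74.5, 78.1, 80.1, 84.5 and 89.4 CPM in KO CP2 F and 65.8, 69.2, 74.1, 76.6 and 82.3 CPM in WT CP2 F. Under M they were 76.8, 78.1, 79.1, 80.7 and 86.9 CPM in KO and 62.6, 66.5, 71.3, 71.7 and 74.9 CPM in WT. Again the M ranges did not overlap and the F ranges did. The averaged log2 fold change was 0.18 (SE 0.05, adjusted p = 0.0164), and the call was kept when any single sample was left out (adjusted p up to 0.0367). It was 0.16 (adjusted p = 0.0544) without samples L266 and L291, 0.13 (adjusted p = 0.0705) when adjusted for reads outside genes and 0.14 (adjusted p = 0.073) when adjusted for astrocyte markers.

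Split by letter, the members called under CP2 were all in M. Under M, Nqo1, Srxn1 and Cat passed, 3 of 10 beside 9.99% of all genes, and the median log2 fold change was 0.32, beside a value of 0.00 over all genes. Under F no member passed by edgeR or DESeq2, beside 2% of all genes. An unadjusted p under 0.05 was found there for 2, beside 4030 of 25601 genes. No member passed the test of F against M (0 of 10 by edgeR and DESeq2, beside 0.82% of all genes). In that test 5 had an unadjusted p under 0.05, beside 3641 of 25601 genes. All 5 had the higher KO over WT value in M: Nfe2l2, Nqo1, Srxn1, Slc7a11 and Cat. Under F the median share of reads outside genes was 6.775% in KO CP2 and 5.811% in WT CP2. Under M it was 7.415% in KO CP2 and 11.18% in WT CP2, the other direction. The part of this share in the F against M values was not tested. For Slc7a11, the cystine importer that supplies glutathione synthesis, the F value was -0.38 (SE 0.20, adjusted p = 0.37) and the M value 0.33 (SE 0.20, adjusted p = 0.337), with a difference of -0.71 (SE 0.28, adjusted p = 0.235).

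Srxn1, sulfiredoxin, restores over-oxidised peroxiredoxins. Its samples were 92.7, 93.2, 94.5, 95.3 and 102 CPM in KO CP2 M and 73.0, 76.1, 77.6, 77.7 and 80.9 CPM in WT CP2 M, ranges that did not overlap. Under F they were 71.9 to 107 CPM in KO and 71.5 to 93.6 CPM in WT. The M log2 fold change was 0.31 (SE 0.09, adjusted p = 0.0243) and the F value 0.02 (SE 0.09, adjusted p = 0.95). The M call was lost without sample L298 of KO or L262 or L263 of WT (adjusted p up to 0.0682), and without samples L266 and L291 together (0.34, adjusted p = 0.0578). Adjusted for reads outside genes it was 0.17 (adjusted p = 0.482), and for astrocyte markers 0.24 (adjusted p = 0.197).

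Cat reached 54.3, 57.2, 61.9, 69.6 and 74.7 CPM in KO CP2 M, against 46.1, 46.6, 50.6, 53.0 and 54.6 CPM in WT CP2 M. Only the lowest KO sample lay within the WT range. The M log2 fold change was 0.34 (SE 0.10, adjusted p = 0.0232) and the F value 0.01 (SE 0.10, adjusted p = 0.966). The M call was lost without sample L292 or L299 of KO or L263 or L289 of WT (adjusted p up to 0.0967) and was kept without samples L266 and L291 (0.40, adjusted p = 0.0332). It fell to 0.15 (adjusted p = 0.552) when adjusted for reads outside genes and to 0.09 (adjusted p = 0.666) when adjusted for astrocyte markers. Without sample L263 of WT CP2 M, Nqo1 alone of the 10 genes was called under M.

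**Figure D3:**
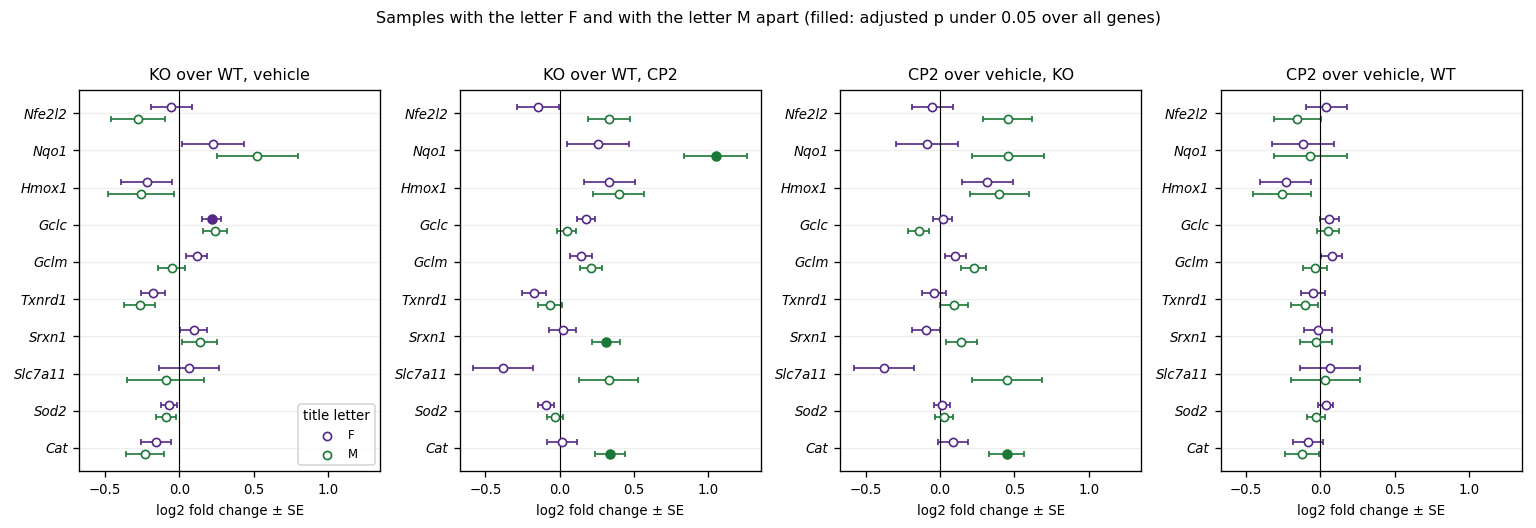
Log2 fold change with its standard error (horizontal axis) of the 10 genes (rows), with F samples in purple and M samples in green; filled points passed the test over all genes. Under CP2, Nqo1, Srxn1 and Cat are filled in M and no gene is filled in F; the F minus M difference did not pass for any of the 10.

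Some genes of the wider pathway were also higher in KO under CP2. Of 32 other NRF2 targets 6 rose and 0 fell, averaged over F and M, beside 11.6% of all genes called. Gsr, glutathione reductase, had a log2 fold change of 0.23 (SE 0.06, adjusted p = 0.00396), and the glutathione transferases Gsta4 and Gstp1 had 0.29 (SE 0.07, adjusted p = 0.00792) and 0.21 (SE 0.05, adjusted p = 0.0103). The ferritin light chain Ftl1 had 0.22, Idh1, a cytosolic source of NADPH, 0.21, and the peroxiredoxin Prdx1 0.14. The list median was 0.14, beside 0.01 over all genes. Gsr, Gsta4, Gstp1 and Ftl1 kept their calls when any 1 sample was left out, and Idh1 and Prdx1 lost theirs in 12 and 10 of 20 fits. With reads outside genes held in the model, Idh1 had 0.15 (adjusted p = 0.151) and Prdx1 0.10 (adjusted p = 0.159). Adjusted for astrocyte markers, Ftl1 had 0.16 (adjusted p = 0.0641), Idh1 0.12 (adjusted p = 0.264) and Prdx1 0.11 (adjusted p = 0.152). Prdx1 also lost its call without samples L266 and L291, at 0.13 (adjusted p = 0.1), and without the filter on low counts, at 0.14 (adjusted p = 0.0654). Gsr, Gsta4 and Gstp1 passed under every alternative run. Gstp1, Ftl1 and Prdx1 have close copies in the genome, and their counts depend on how reads with several matches were treated. Under M, 11 of the 32 rose, Ftl1 (0.45) and Prdx6 (0.53) among them, beside 9.99% of all genes called. Under F none passed by edgeR, beside 2% of all genes. An unadjusted p under 0.05 was found under F for 3 of the list, beside 4030 of 25601 genes. Of these genes Ftl1 passed the test of F against M (F minus M -0.47, SE 0.12, adjusted p = 0.0455), beside 0.82% of all genes. Prdx6 was singled out after its value was seen.

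Of 23 other antioxidant enzymes 5 rose and 1 fell, averaged over F and M, beside 11.6% of all genes called. Txnrd3, a thioredoxin and glutathione reductase, had 0.61 (SE 0.11, adjusted p = 0.000207), and the lipid hydroperoxidase Gpx4 had 0.28 (SE 0.05, adjusted p = 0.00035). Gpx1, Prdx4 and Msra, a methionine sulfoxide reductase, had 0.28, 0.26 and 0.22, and the mitochondrial glutaredoxin Glrx2 had -0.16 (SE 0.04, adjusted p = 0.0144). Txnrd3, Gpx4 and Glrx2 kept their calls when any 1 sample was left out, while Gpx1, Prdx4 and Msra lost theirs in 14, 10 and 8 of 20 fits. In the model with reads outside genes, Gpx1 had 0.22 (adjusted p = 0.133) and Prdx4 0.21 (adjusted p = 0.103), and adjusted for astrocyte markers 0.24 (adjusted p = 0.123) and 0.21 (adjusted p = 0.112). Without samples L266 and L291, Gpx1 had 0.29 (adjusted p = 0.076) and Msra 0.21 (adjusted p = 0.0855). Glrx2 had -0.15 (adjusted p = 0.0517) without the filter on low counts, while Txnrd3 and Gpx4 passed under every alternative run. Among 12 regulators, Bach1, a repressor that competes with NRF2 for its sites, rose (0.19, SE 0.06, adjusted p = 0.0402), and Mafg fell (-0.36, SE 0.06, adjusted p = 2.08e-05). The same 11.6% of all genes stands beside this list. The call of Bach1 was lost in 13 of 20 fits that left out 1 sample and that of Mafg in none. Bach1 had 0.15 (adjusted p = 0.154) when adjusted for astrocyte markers and 0.19 (adjusted p = 0.0807) without the filter on low counts, and Mafg passed under every alternative run. Mafg was thus lower in KO on vehicle and under CP2 alike, in samples that do not overlap between these 2 comparisons.

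Some glial markers rose in the same comparison: 3 of 10 for microglia, 2 of 10 for astrocytes (Gfap and S100b) and 2 of 8 for oligodendrocytes. This is beside 11.6% of all genes called. Of the regional lists, Wfs1 (hippocampus) was higher and Lamp5 (cortex) lower. The astrocyte sum was 6248 to 7369 CPM in KO CP2 M and 5153 to 6038 CPM in WT CP2 M, with no overlap, and 5143 to 6878 CPM in KO CP2 F against 5703 to 6092 CPM in WT CP2 F. The mean sum under F was 5768 CPM in KO CP2 and 5882 CPM in WT CP2, so it was not higher in KO there. In a model that held the astrocyte sum, added after seeing the data, Nqo1 was still called (0.62, adjusted p = 0.00758, averaged). Hmox1 and Gclm were not, and Gclc and Txnrd1 were called instead. As the sums did not overlap under M, a call lost in that model cannot separate genotype from the astrocyte sum there.

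The third comparison asked what CP2 did in KO mice. Averaged over F and M, Cat rose by 20.4%, the 1 member of 10 called, beside 3.91% of all genes. The Cat samples were 36.3, 48.8 and 54.7 CPM in KO vehicle M, 54.3, 57.2, 61.9, 69.6 and 74.7 CPM in KO CP2 M, 40.3, 51.6, 57.8, 60.5 and 64.4 CPM in KO vehicle F, and 52.4, 53.5, 55.9, 64.2 and 65.7 CPM in KO CP2 F. Both pairs of ranges overlapped, under M by a single sample on each side. The averaged log2 fold change was 0.27 (SE 0.08, adjusted p = 0.0375), the M value 0.45 (SE 0.12, adjusted p = 0.018) and the F value 0.09 (SE 0.10, adjusted p = 0.824). The test of F against M did not pass (-0.36, SE 0.15, adjusted p = 0.249). The averaged call was lost without any 1 of samples L233, L234, L266, L292 and L299 on CP2 or L246, L281, L319 and L322 on vehicle, and the M call without sample L292, L299 or L322. In the average, Gclm was called beside Cat without sample L201 or L283, and Hmox1 without sample L310. Without sample L322, the lowest, the values were 0.19 (adjusted p = 0.217) and 0.30 (adjusted p = 0.28). Without samples L266 and L291 they were 0.30 (adjusted p = 0.048) and 0.51 (adjusted p = 0.0377). With only the groups compared in the fit they were 0.27 (adjusted p = 0.16) and 0.44 (adjusted p = 0.0712).

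Cat was the 1 member called under M as well, beside 5.1% of all genes. Under F none was called by edgeR or DESeq2, beside 0.0859% of all genes. None had an unadjusted p under 0.05 there, where 2827 of 25601 genes did. Other members had values of similar size under M without passing: Nfe2l2 0.45 (SE 0.16, adjusted p = 0.0994), Nqo1 0.46 (SE 0.24, adjusted p = 0.305), Slc7a11 0.45 (SE 0.24, adjusted p = 0.294) and Hmox1 0.40 (SE 0.20, adjusted p = 0.267). The Nfe2l2 samples were 10.8, 18.1 and 18.8 CPM on vehicle and 18.9, 22.1, 22.5, 22.7 and 22.8 CPM on CP2, ranges that did not overlap. The median over the 10 genes was 0.31 under M and -0.02 under F, beside 0.00 over all genes in both. No member passed the test of F against M by edgeR or DESeq2, beside 0.691% of all genes. In that test 3 had an unadjusted p under 0.05, beside 3768 of 25601 genes.

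The share of reads outside genes moved with this comparison, at 11.26% to 13.03% in KO vehicle M and 5.18% to 9.07% in KO CP2 M. Once the model held that share, no member was called: Cat had 0.13 (adjusted p = 0.783) averaged and 0.24 (adjusted p = 0.632) under M. Because the M ranges of the share do not overlap, this loss cannot separate the share from CP2. Some glial markers also rose, 6 of 10 for microglia, 5 of 8 for oligodendrocytes and S100b for astrocytes, beside 3.91% of all genes called. Adjusted for astrocyte markers, Cat had 0.13 (adjusted p = 0.479) averaged. In the pathway lists 3 of 32 targets rose, Prdx1 (0.26, SE 0.05, adjusted p = 0.0047), the ferritin heavy chain Fth1 (0.27, SE 0.07, adjusted p = 0.0167) and Ftl1 (0.25, SE 0.06, adjusted p = 0.0194). Of the 23 enzymes Prdx2, Glrx3 and Txn2 rose, with 0.24, 0.21 and 0.17. Both list counts stand beside 3.91% of all genes called. None of these 6 list genes passed once the model held the share of reads outside genes (values 0.04 to 0.26) or the astrocyte sum (0.16 to 0.23). Without samples L266 and L291, Ftl1 had 0.22 (adjusted p = 0.0792) and Txn2 0.15 (adjusted p = 0.112), and the other 4 passed. With only the groups compared in the fit, Fth1 had 0.27 (adjusted p = 0.0654), Ftl1 0.25 (adjusted p = 0.0636) and Txn2 0.17 (adjusted p = 0.109). Txn2 also did not pass with DESeq2 size factors, at 0.16 (adjusted p = 0.0563), or without the filter on low counts, at 0.18 (adjusted p = 0.0683). Prdx2, Glrx3 and Txn2 were the 3 enzymes lower in KO on vehicle; both comparisons use the KO vehicle samples, so they are not independent. None of the 12 regulators passed by edgeR, and none had an unadjusted p under 0.05, where 4641 of 25601 genes did.

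In WT mice no change of the 10 genes with CP2 passed the test. No member was called by edgeR or DESeq2, averaged or by letter, and none had an unadjusted p under 0.05. This is beside 0% of all genes called in each of these comparisons, where 1031 of 25601 genes had an unadjusted p under 0.05 in the average, and DESeq2 called at most 1 gene. The averaged log2 fold changes of the 10 genes lay between -0.25 for Hmox1 (SE 0.13) and 0.06 for Gclc (SE 0.05). Hmox1 ran from 4.71 to 5.65 CPM on vehicle and from 3.59 to 5.22 CPM on CP2 under F, and from 3.51 to 6.04 CPM on vehicle and from 3.06 to 4.69 CPM on CP2 under M. The values of F and M were not shown to differ for any member (0 of 10 by edgeR and DESeq2, beside 0% of all genes by edgeR). The lists of 12 regulators, 32 targets and 23 enzymes held 0 called genes by edgeR, with 1, 1 and 2 at an unadjusted p under 0.05.

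Whether the CP2 effect differed by genotype was tested as an interaction averaged over F and M. No member passed with edgeR, beside 0.715% of all genes. Hmox1 and Cat had an unadjusted p under 0.05, as had 3736 of 25601 genes. On the log2 scale the CP2 effect on Hmox1 was higher in KO than in WT by 0.60 (SE 0.18, adjusted p = 0.102), and that on Cat by 0.37 (SE 0.11, adjusted p = 0.0842). DESeq2 called both. With edgeR, Cat passed without sample L283, L298 or L310, and Hmox1 without sample L303. In the lists Prdx1 (0.29, SE 0.07, adjusted p = 0.0419) and Prdx2 (0.29, SE 0.07, adjusted p = 0.0394) passed, 1 of 32 targets and 1 of 23 enzymes. Adjusted for reads outside genes they had 0.15 (adjusted p = 0.698) and 0.12 (adjusted p = 0.747), adjusted for astrocyte markers 0.24 (adjusted p = 0.142) and 0.26 (adjusted p = 0.125), and without samples L266 and L291 0.27 (adjusted p = 0.0921) and 0.27 (adjusted p = 0.089). Both code for peroxiredoxins, which reduce hydrogen peroxide and are the substrates that sulfiredoxin repairs.

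**Figure D4:**
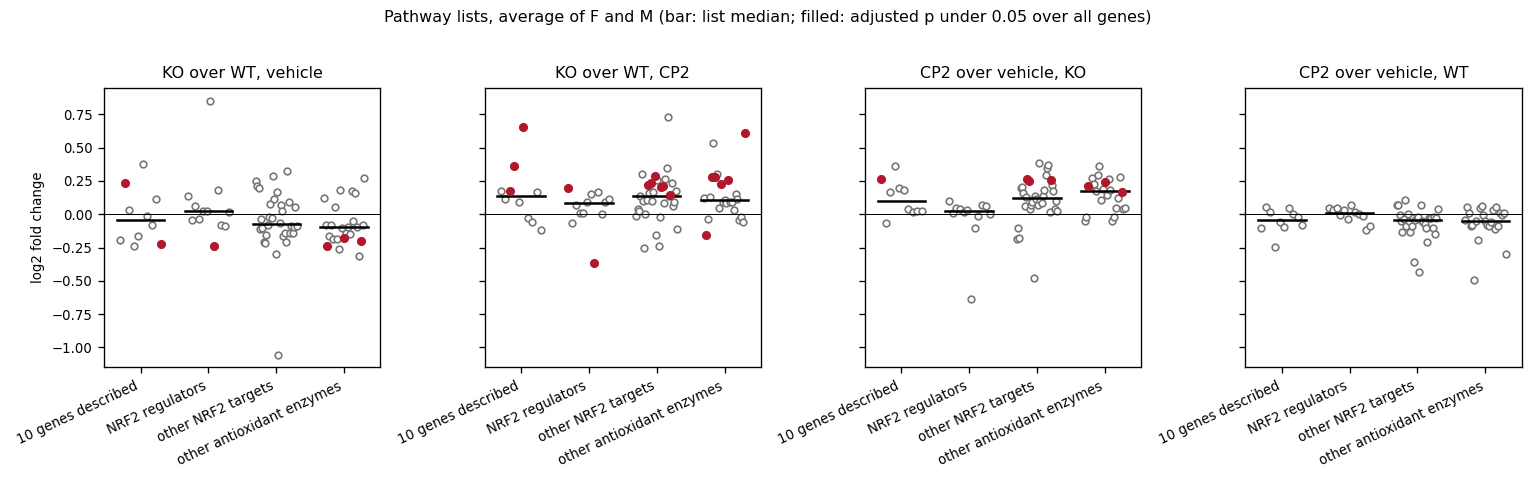
Log2 fold change (vertical axis) of each gene in the 10-gene set and the 3 pathway lists, in the 4 comparisons averaged over F and M; bars are list medians and filled points passed the test over all genes. For KO over WT under CP2 the median is 0.14 in the 10 genes and in the other targets and 0.11 in the other enzymes; for CP2 in WT no point is filled.

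The members Nfe2l2, Slc7a11 and Sod2, the mitochondrial superoxide dismutase, were called in none of the 17 comparisons. Sod2 was narrow, with group means from 179 to 195 CPM and log2 fold changes between -0.09 and 0.03 in the 12 comparisons between 2 conditions. Slc7a11 varied widely within groups, from 45.1 to 131 CPM in KO vehicle F, so the test had little precision for it (SE 0.14 to 0.26 in these comparisons).

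Across the 36 samples, with group means removed, the 10 genes varied together only in part. Of 45 gene pairs 34 had a positive Pearson correlation (median r 0.22), and 6 passed a permutation test adjusted over the 45 pairs, all positive. Hmox1 and Txnrd1 had r = 0.66 (rho = 0.70, adjusted p = 0.00045, the smallest these permutations can give), and Hmox1 also varied with Cat (r = 0.57, rho = 0.56, adjusted p = 0.0207) and Slc7a11 (r = 0.55, rho = 0.57, adjusted p = 0.0178). Nfe2l2 varied with Cat (r = 0.67, rho = 0.62, adjusted p = 0.009) and Gclm (r = 0.60, rho = 0.57, adjusted p = 0.0251). Nqo1 varied with Slc7a11 (r = 0.51, rho = 0.55, adjusted p = 0.0309). Without the 2 samples farthest from the median of the first gene, r for these pairs was 0.64, 0.47, 0.50, 0.54, 0.55 and 0.54 in the order given. Over all 36 samples the adjusted p for rho of these pairs lay between 0.00315 and 0.0264. The subunits Gclc and Gclm of the same enzyme had r = 0.21 (rho = 0.18, adjusted p = 0.488).

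Most of the genes in these pairs also varied with astrocyte markers, a relation looked at after seeing the data. Within groups the log2 sum of 10 astrocyte markers had r = 0.74 with Nfe2l2 (rho = 0.76, permutation test adjusted p = 0.0008 over 20 relations), 0.71 with Slc7a11 (rho = 0.69, adjusted p = 0.0008), 0.70 with Hmox1 (rho = 0.64, adjusted p = 0.0008), 0.65 with Cat (rho = 0.64, adjusted p = 0.00945) and 0.49 with Txnrd1 (rho = 0.49, adjusted p = 0.0322). Without the 2 farthest samples these r values were 0.75, 0.68, 0.58, 0.60 and 0.45. Over all 36 samples the adjusted p for rho of these genes lay between 0.0002 and 0.0308. For Nqo1 r was 0.13 (rho = 0.20, adjusted p = 0.614). Nqo1 had r = 0.56 with choroid plexus markers (adjusted p = 0.021), but rho = 0.39 (adjusted p = 0.101) and r = 0.34 without the 2 farthest samples, so that relation rests partly on those. The share of reads outside genes passed with none of the 10 (permutation test, 0 of 10, adjusted p from 0.0666 up), with r = -0.52 for Gclm the farthest from 0 (rho = -0.45). All these values share the library and its scaling.

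**Figure D5:**
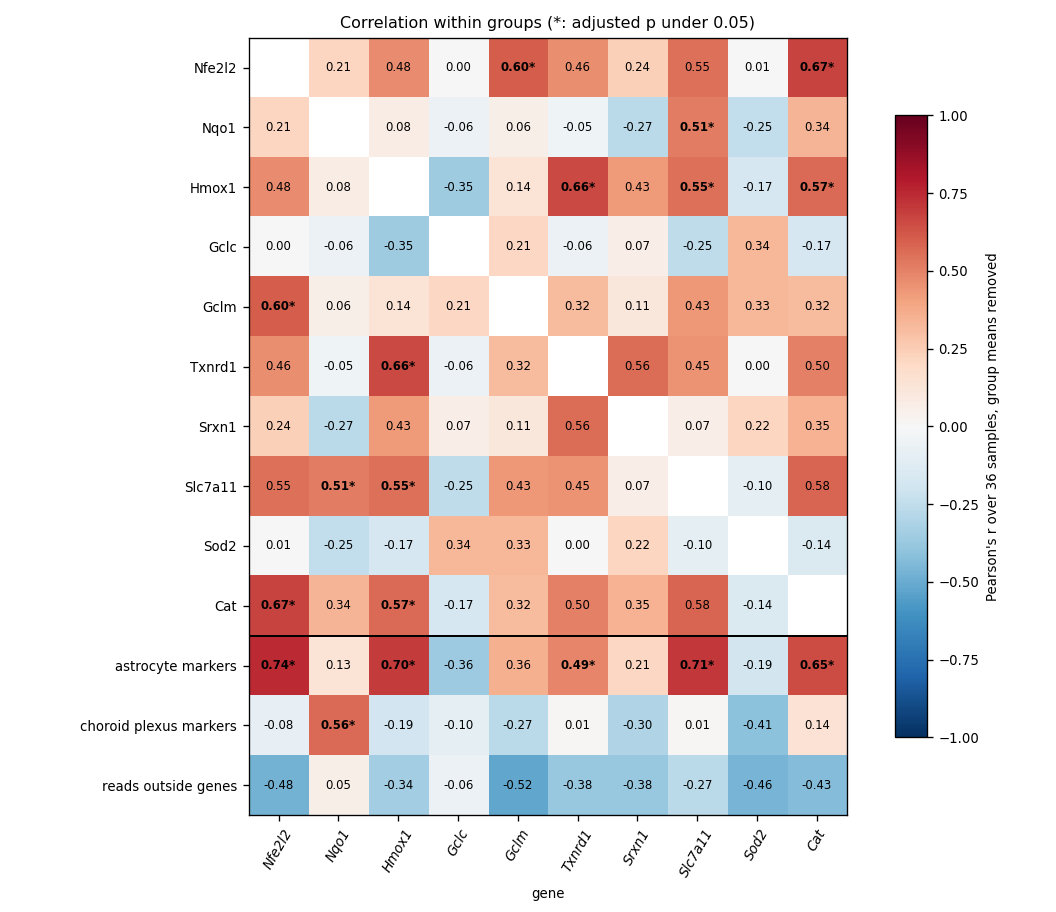
Pearson correlation (colour and printed value) over 36 samples after removing group means, between the 10 genes and, under the line, with the astrocyte marker sum, the choroid plexus marker sum and the share of reads outside genes; stars mark adjusted p under 0.05. Nfe2l2, Slc7a11, Hmox1 and Cat have the highest values in the astrocyte row (0.65 to 0.74), while Nqo1 is starred with Slc7a11 and with choroid plexus markers.

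For the 6 members called in an averaged comparison, the 3 genes of most similar pattern over all 36 samples, among 12045 genes with a mean of at least 5 CPM, were listed by Pearson correlation of log2 CPM. For Nqo1 they included Mxra8 (r = 0.81) and Wfikkn2 (0.81). For Hmox1 they were Mlc1 (0.77), Kcne1l (0.76) and Pea15a (0.73). Gclc was nearest to Ufd1 (0.81), Plaa (0.79) and Tma16 (0.77), and Gclm to Sspn (0.75), Lamp1 (0.75) and Cd38 (0.74). Txnrd1 was nearest to Paqr7 (0.84), Mlec (0.82) and Aldh18a1 (0.82), and Cat to Abhd4 (0.87), Phgdh (0.85) and Asrgl1 (0.84). No gene was on the list of more than 1 member. These correlations include differences between groups and are descriptive.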

How the data were processed

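PolyA-selected RNA was sequenced in 36 brain samples (Trizol-based extraction and Illumina TruSeq libraries, per the labels' protocols). The authors deposited a table of raw read counts per Ensembl gene; STAR, HTSeq and the build GRCm39 are named in the submitters' processing notes, without versions. Annotation release, strandedness and read filters are not given in the sources used here, so reads of overlapping and antisense genes cannot be told apart. The 5 summary lines were left out of library sizes; reads outside genes made up 5.09% to 13.2% of a sample (median 7.61%). Symbols matched 52073 of 56980 identifiers (91.4%); exon lengths came from GENCODE annotation of GRCm38 by gene identifier.

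All genes were tested in edgeR 4.0.16 (R 4.3.3; TMM, filterByExpr, robust quasi-likelihood fit, 8 group coefficients over 36 samples, 25601 genes, 17 contrasts), adjusted by Benjamini-Hochberg within a contrast and called under 0.05. The standard error is the log2 fold change over the square root of F. The same code was tested on simulated data. Correlations used log2 CPM (prior count 2) with group means removed and 100000 permutations within groups, two-sided. Alternatives included DESeq2 1.42.0. The labels do not say that samples of a group are separate cohorts or litters, so p-values measure only the spread between these samples; 66 pairs of samples of a group were compared, and no pair agreed within sampling noise. All 10 members were named. From the lists (12 regulators, 32 targets, 23 enzymes) genes called in an averaged comparison or in the averaged interaction were named, at most 6 per list and comparison in order of p. The members and lists were chosen with earlier results of these data known.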

Additional observations from a re-analysis of the deposited data

Results flagged for a closer look

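In 3 cases a single sample stood apart from the rest of their group by Dixon's criterion, out of 60 combinations of member and group of 5 samples that were tested; chance alone flags about 1 in 20. In KO CP2 M, sample L298 had the lowest Nfe2l2, 18.9 CPM against 22.1 CPM for the next, and the highest Srxn1, 102 CPM against 95.3 CPM. In KO vehicle F, sample L283 had the highest Sod2, 196 CPM against 178 CPM. Sample L298 also had the lowest choroid plexus marker sum, 200 CPM.

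In the pathway lists 4 differences between groups passed the test of the difference itself (edgeR). The CP2 effect was higher in KO than in WT for Prdx1 (log2 difference 0.29, SE 0.07, adjusted p = 0.0419) and for Prdx2 (0.29, SE 0.07, adjusted p = 0.0394). The KO effect under CP2 was lower in F than in M for Ftl1 (-0.47, SE 0.12, adjusted p = 0.0455). The effect of CP2 in KO was lower in F than in M for Gsta4 (-0.64, SE 0.16, adjusted p = 0.0492). Leaving out 1 sample at a time ended the call in 23 of 36 fits for Prdx1 and 19 of 36 for Prdx2. Such fits are not given here for Ftl1 and Gsta4, whose adjusted p lay close to the threshold.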

How the results depend on the processing

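No called value of a member changed direction under any alternative run, nor did that of a list gene called in an averaged comparison or interaction. Direction was checked for these values only. The counts of members called moved as follows. Adjusted for reads outside genes they became 1 (KO against WT on vehicle, averaged, main 2), 0 (F alone, main 1), 1 (KO against WT under CP2, averaged, main 3), 1 (M alone, main 3), 0 (CP2 in KO, averaged, main 1) and 0 (M alone, main 1). With only the groups of a comparison in the fit they became, in the same order, 1, 0, 5, 5, 0 and 0. Adjusted for astrocyte markers, an alternative added after seeing the data, the counts for vehicle F, CP2 M, CP2 in KO averaged and CP2 in KO under M became 0, 1, 0 and 0, while choroid plexus markers moved none of the counts or calls. Without a filter on low counts, vehicle F became 0. Without samples L266 and L291, KO against WT under CP2 averaged became 1. DESeq2 gave 2 for the interaction in place of 0. Leaving out 1 sample at a time gave 1 to 2 (vehicle, averaged), 0 to 1 (vehicle F), 2 to 4 (CP2, averaged), 1 to 4 (CP2 M), 0 to 2 (CP2 in KO, averaged), 0 to 1 (CP2 in KO under M) and 0 to 1 (interaction), and 0 in every fit of the other 10 comparisons. The cause was not tested, except that fewer samples enter the last fits. The 6 pairs that passed the correlation test were the same with a prior count of 0.5, and 5 of 6 passed without samples L266 and L291. No paired analysis was possible because no title number is shared between samples. Every member had at least 145 reads in every sample.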
